A study of Homo sapiens with 12 samples.

Results

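Histone genes were described across 4 treatments of MOLM-13, a cell line from human acute myeloid leukemia. The members were the gene symbols named as H1, H2AC, H2BC, H3C or H4C genes in the deposited table, with rows summed per symbol. They were selected on their level in these same 12 libraries: at least 10 normalised counts in 3 or more of them. Of 46639 symbols in the table, 70 matched the names and 63 passed: 8 H1, 15 H2A, 16 H2B, 12 H3 and 12 H4 genes. The other 7 were H1-7, H1-8, H2AC1, H2BC1, H3C3, H4C6 and H4C7. The members with the lowest means over all libraries were H3C8 at 5.70, H2BC10 at 6.34 and H2BC3 at 7.03. Just outside the level rule, H3C3 had a mean of 2.27 and a highest value of 9.41, and H1-7, H1-8 and H2AC1 were listed at 0 in every library.

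Cells were left untreated or received decitabine (DAC, 100 nM), which inhibits DNA methylation, all-trans retinoic acid (ATRA, 1 µM), which activates retinoic acid receptors, or both (DAC+ATRA). Each of the 4 groups had 3 libraries, and the labels call them technical triplicates of 1 cell line, so p-values measure only the spread between these libraries. All groups grew in medium with GM-CSF, changed daily, and no vehicle control was analysed here. The labels give 96 h for untreated libraries and 72 h for treated ones, whereas the design text names 72 h for the harvest. Time and treatment therefore cannot be told apart if the labels hold. The methods describe ATRA as given later than DAC. RNA was depleted of ribosomal RNA, not selected for poly(A) tails, so RNAs without such tails were kept.

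Most histones are made in S phase, when new DNA is packed into nucleosomes. An octamer of H2A, H2B, H3 and H4 forms the core of the nucleosome, and H1 binds the linker DNA outside it. Most replication-dependent histone genes lie in clusters and lack introns, and their mRNAs end in a conserved stem-loop instead of a poly(A) tail. The stem-loop binding protein SLBP recognises that stem-loop. H1-10 is a replication-independent linker histone whose mRNA has a poly(A) tail. H1-6 is known as a testis linker histone.

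Of the 63 members, 50 lay on chromosome 6 between positions 26017032 and 27893891 and 11 on chromosome 1 between 149782689 and 149887965 (GRCh38, GENCODE release 44). H1-10 lies on chromosome 3. In the reference, 61 of the 63 had a 16-base histone stem-loop starting 23 to 68 bases after the stop codon, and H1-10 lacked it. Among 19947 coding transcripts searched in the 100 bases after the stop codon, 72 (0.361%) held it, and all 72 carried histone names. The 4 commonest forms are shown because they set H4 genes apart from the other classes and return beside the fold changes. Capitals mark the stem-loop.
most H1, H2A, H2B and H3 genes: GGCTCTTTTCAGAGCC
H1-1, H1-6 and others: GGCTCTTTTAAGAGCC
H4 genes such as H4C4 and H4C5: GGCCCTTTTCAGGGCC
H4C9, H4C12, H4C14 and H4C15: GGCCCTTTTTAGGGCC
The first form was found in 35 members, the second in 9, the third in 7 and the fourth in 4. Both the first and the second occurred in H1, H2A, H2B and H3 genes. Among H1 genes the first was found in H1-2, H1-3, H1-4 and H1-5. Another 6 members had a form of their own.

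RefSeq promoters (GRCh38.p14) were matched for 57 members. In the 250 bases before the start, CCAAT was found on either strand in 84.2% of members and 33.0% of all 27305 RefSeq promoters, and TATAAA in 68.4% against 11.1%. ATTTGCAT, the octamer known from H2B promoters, was found in 13 of 16 H2B and 10 of 14 H2A promoters, against 1.66% of all. AAACACA, known from H1 promoters, was found in 6 of 7 H1 promoters and no other member's, against 4.95% of all. None of these 4 motifs is contained in another on either strand, and a match is only a description of the window. The 250 bases are printed for H1-1, H1-6 and H1-3, which are related linker histone genes with opposite changes under DAC, and for H2BC8, which starts back to back with H2AC8. Capitals mark the motifs named above.
H1-1, chr6:26017788-26018037, minus strand: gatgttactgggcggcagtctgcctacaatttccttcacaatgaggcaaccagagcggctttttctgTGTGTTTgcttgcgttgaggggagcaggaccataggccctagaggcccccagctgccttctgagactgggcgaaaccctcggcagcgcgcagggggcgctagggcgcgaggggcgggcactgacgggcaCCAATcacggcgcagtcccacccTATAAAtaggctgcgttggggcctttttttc
H1-6, chr6:26108136-26108385, minus strand: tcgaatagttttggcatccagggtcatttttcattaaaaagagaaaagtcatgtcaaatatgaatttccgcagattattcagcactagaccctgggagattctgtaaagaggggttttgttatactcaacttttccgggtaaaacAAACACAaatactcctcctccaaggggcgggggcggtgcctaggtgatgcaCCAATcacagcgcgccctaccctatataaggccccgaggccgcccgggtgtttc
H1-3, chr6:26234988-26235237, minus strand: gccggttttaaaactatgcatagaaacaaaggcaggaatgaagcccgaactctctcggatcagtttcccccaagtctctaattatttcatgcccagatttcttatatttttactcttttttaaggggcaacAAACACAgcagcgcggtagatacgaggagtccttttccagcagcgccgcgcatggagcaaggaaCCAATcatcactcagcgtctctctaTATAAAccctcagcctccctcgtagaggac
H2BC8, chr6:26216689-26216938, minus strand: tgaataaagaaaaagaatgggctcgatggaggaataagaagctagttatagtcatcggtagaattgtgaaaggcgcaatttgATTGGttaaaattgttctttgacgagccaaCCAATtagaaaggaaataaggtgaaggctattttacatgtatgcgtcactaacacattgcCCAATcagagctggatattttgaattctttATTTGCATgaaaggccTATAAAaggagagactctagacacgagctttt
All 3 H1 windows held both CCAAT and the H1 motif, and those of H1-1 and H1-3 also held TATAAA. The window of H1-1 held 15 CpG sites, that of H1-3 held 11 and that of H1-6 held 10, against a median of 9 over the 57 members and 11 over all RefSeq promoters.

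Recovered reads ranged from 4671214 to 11944630 per library. Both groups with DAC were shallower, at up to 7162775, than the groups without it, at 8363702 or more. Of 10 myeloid markers, all were tested, and their summed level ranged from 71759 to 79430 normalised counts in untreated, 184407 to 224452 in DAC, 25387 to 30247 in ATRA and 71844 to 75537 in DAC+ATRA. LYZ carried much of this sum, with group means of 41628, 153287, 6819 and 40819. The list was mixed: 1 marker was higher and 4 lower with ATRA, 3 higher and 1 lower with DAC, and 4 higher and 2 lower with DAC+ATRA. The 4 erythroid and megakaryocytic markers, HBB among them, summed to at most 2.04 normalised counts in any library. Of 6 lymphoid markers, 4 stayed below 10 in every library, as did 3 of 4 epithelial and stromal markers. Those that moved were named after their values were seen. CD79A had group means of 3.07 normalised counts in untreated, 16.5 with DAC, 15.6 with ATRA and 33.8 with DAC+ATRA, and COL1A1 had 8.03, 21.2, 79.0 and 48.6, both called higher in all 3 comparisons with untreated. CD3D was called higher in DAC+ATRA than in ATRA, at means of 22.9 and 5.66. The part of these markers, and of depth, in the histone results was not tested. Replicate libraries differed by more than sampling noise in every group, so each was counted as 1 sample.

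Histone genes took a smaller share of the reads in every treated library than in any untreated one. The share was 5.14%, 5.04% and 4.72% in untreated libraries, 4.18%, 4.19% and 3.55% with DAC, 2.86%, 2.97% and 2.48% with ATRA, and 2.65%, 2.45% and 2.24% with DAC+ATRA. The untreated, DAC and ATRA shares did not overlap, whereas DAC+ATRA overlapped ATRA. In bulk RNA, fewer cells that make a transcript and less transcript per cell cannot be told apart. On the scale of summed normalised counts, the members fell from 365379 ± 11309 (SD, n = 3) in untreated to 298130 ± 25793 with DAC, which is 81.6% of the untreated mean, to 211946 ± 25726 (58.0%) with ATRA and to 183851 ± 22304 (50.3%) with DAC+ATRA.

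**Figure D1:**
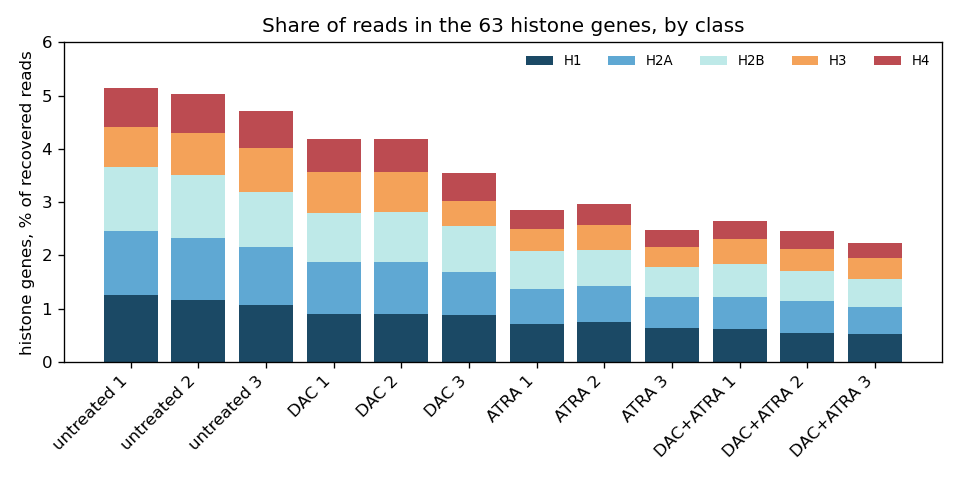
Bars give the percent of recovered reads in the 63 histone genes in each of 12 libraries, stacked by class (H1, H2A, H2B, H3, H4). The whole bars run from 4.72% to 5.14% in untreated libraries and from 2.24% to 2.65% with DAC+ATRA, and every class shrinks.

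The 5 classes moved by similar amounts. With DAC the summed normalised counts stood at 78.1% of untreated for H1, 81.7% for H2A, 81.3% for H2B, 85.1% for H3 and 83.7% for H4. With ATRA the values were 62.8%, 58.1%, 58.6%, 55.1% and 52.4% in the same order. With DAC+ATRA they were 48.8%, 51.1%, 51.4%, 54.3% and 45.5%. These sums weigh the genes with the most reads, so each gene was then tested on its own.

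ATRA alone lowered most of the histone genes, and raised none past the threshold. Each gene was tested with limma on log2(normalised count + 1) in 1 fit over all 12 libraries and 10642 protein-coding genes, and called at a Benjamini-Hochberg adjusted p under 0.01. Of the 63 members, 39 were lower with ATRA and 24 were not called, while over all genes 14.0% were called lower, 12.1% higher and 26.0% either way. The median log2 change was -0.82 over the members and -0.04 over all genes tested. By class, 5 of 8 H1, 9 of 15 H2A, 12 of 16 H2B, 7 of 12 H3 and 6 of 12 H4 genes were lower. The same was counted over the 53 members with a mean of at least 50 normalised counts over all libraries. Of these, 37 were lower and none higher.

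DAC alone lowered fewer histone genes than ATRA did. It lowered 11 members and raised 2, H1-1 and H1-6, against 3.67% of all genes called lower, 4.29% higher and 7.97% in all. The count of higher members does not stand above the background. The lower members included H1-2, H1-3, H2AC8, H2AC15, H2AC20, H2BC8, H2BC9, H2BC21, H4C5 and H4C12. No H3 gene was called by limma, with 2 of 12 at an unadjusted p under 0.05. The median log2 change was -0.25 over the members and 0.00 over all genes. This count moved with single libraries: it was 6 without untreated replicate 1, 6 without untreated replicate 2, 7 without DAC replicate 1 and 8 without DAC replicate 2, and 7 with only the DAC and untreated libraries in the fit.

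DAC+ATRA lowered 44 of the 63 members and raised none past the threshold, against 14.4% of all genes called lower, 14.5% higher and 28.9% in all. The median log2 change was -0.86 over the members and 0.00 over all genes. H2A genes were called most often, with 12 of 15, followed by H2B with 12 of 16, H1 with 6 of 8, and H3 and H4 with 7 of 12 each. Of the 53 members with a mean of at least 50 normalised counts, 43 were lower and 10 were not called. DAC+ATRA had the lowest group mean of the 4 groups in 44 members, and untreated the highest in 47. Low members are included here, and the same was not counted over all genes.

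The calls against untreated fell into 7 patterns. The commonest, in 28 members, was no call with DAC and a lower level with both ATRA and DAC+ATRA, and 8 members were lower in all 3. Another 5 (H1-4, H1-10, H2AC6, H2AC7 and H3C6) were called lower only with DAC+ATRA, 3 (H2AC20 and H4C12 among them) with DAC and DAC+ATRA, and H3C1 with ATRA alone. H1-1 and H1-6 were called higher with DAC and lower with ATRA, where H1-6 rests on few reads. The remaining 16 were called in none of the 3. These comparisons share the untreated libraries, and a call in 1 comparison and not in another does not show that the effects differ.

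**Figure D2:**
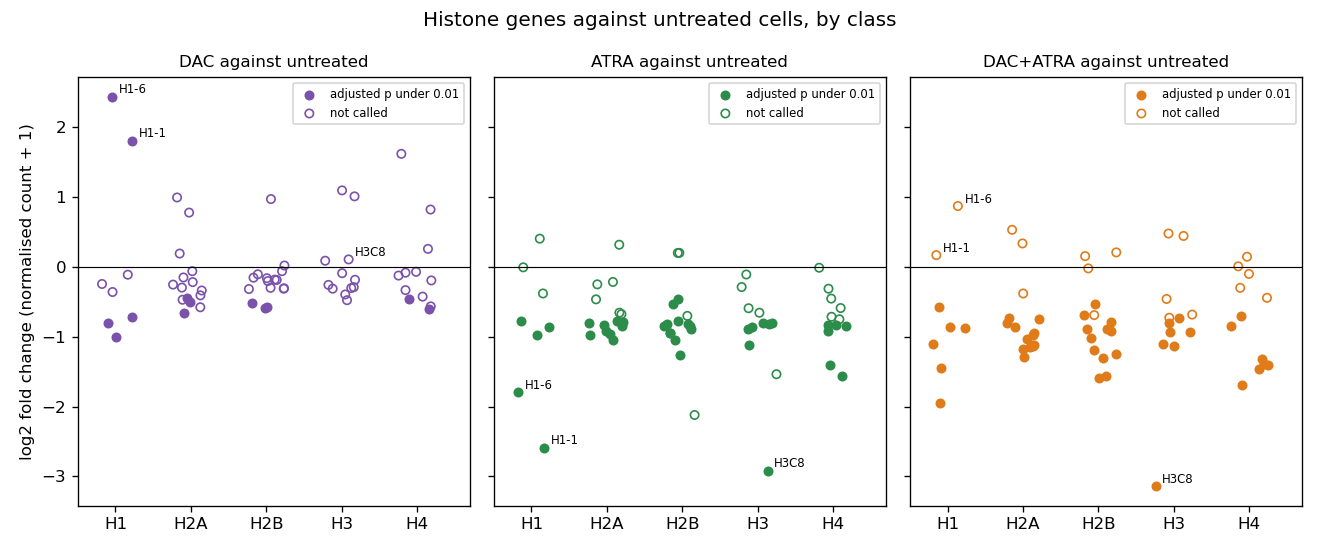
Each point is 1 of the 63 histone genes, by class along the x axis, with the log2 fold change of normalised count + 1 on the y axis for DAC, ATRA and DAC+ATRA against untreated. Filled points had an adjusted p under 0.01: 13 with DAC, 39 with ATRA and 44 with DAC+ATRA, all below 0 but H1-1 and H1-6 with DAC.

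Set directly against the single drugs, DAC+ATRA differed from DAC in more members than from ATRA. Against DAC, 36 members were lower and none higher, with 9.74% of all genes called lower, 9.04% higher and 18.8% in all. Against ATRA, 10 were lower and 2 higher (H1-1 and H1-6), with 5.46% of all genes called lower, 6.47% higher and 11.9% in all. Here too the count of higher members does not stand above the background. The count against ATRA was 7 without DAC+ATRA replicate 3. Of the 12 called against ATRA, 7 were H1 genes, 1 was H2A, 2 were H2B and 2 were H4. The interaction asks whether the log2 change by DAC differs between cells with and without ATRA. It was called by limma in 0 of 63 members, with 4 at an unadjusted p under 0.05. DESeq2 and edgeR also called 0. Over all genes the interaction was called higher in 0.724%, lower in 0.874% and either way in 1.60%.

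Linker histones were called in both directions. H1-3 fell stepwise over the 3 treatments. It had 4556, 4441 and 4570 normalised counts in untreated libraries, 2635, 2595 and 2562 with DAC, 1965, 2869 and 2171 with ATRA, and 1463, 1024 and 1069 with DAC+ATRA. All DAC+ATRA libraries lay below all others, and DAC and ATRA overlapped. Against untreated its log2 change was -0.80 ± 0.14 (SE) with DAC, -0.97 ± 0.14 with ATRA and -1.95 ± 0.14 with DAC+ATRA (limma, adjusted p = 1.3e-09 for the last). The difference of DAC+ATRA to ATRA was -0.98 (limma, adjusted p = 4e-05).

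H1-2 behaved alike. Its counts were 22566, 21607 and 23314 in untreated, 14165, 14048 and 12882 with DAC, 12263, 15343 and 11899 with ATRA, and 9515, 7820 and 7586 with DAC+ATRA. The untreated libraries lay above all others and the DAC+ATRA libraries below all others, and DAC and ATRA overlapped. The log2 change with DAC+ATRA was -1.44 ± 0.12 against untreated and -0.66 ± 0.12 against ATRA.

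H1-4 was called lower only with both drugs. It had 26731, 23491 and 22111 counts in untreated, 19656, 18925 and 17600 with DAC, 17748, 20481 and 17236 with ATRA, and 15504, 12501 and 12068 with DAC+ATRA. No treated library reached the lowest untreated one, yet the changes of -0.36 with DAC and -0.38 with ATRA did not pass (limma, adjusted p = 0.044 and 0.015). The change with DAC+ATRA was -0.86 ± 0.12.

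H1-5 moved with ATRA only. Its counts were 36793, 33097 and 28938 in untreated, 30084, 28383 and 32571 with DAC, 20515, 19687 and 14531 with ATRA, and 20348, 17464 and 15948 with DAC+ATRA. DAC overlapped untreated and DAC+ATRA overlapped ATRA. Its log2 change was -0.86 ± 0.14 with ATRA and -0.88 ± 0.14 with DAC+ATRA.

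H1-1 went the other way with DAC. It had 99.5, 127 and 86.6 normalised counts in untreated libraries, 336, 361 and 394 with DAC, 23.3, 14.9 and 12.5 with ATRA, and 144, 104 and 104 with DAC+ATRA. The DAC libraries lay above all others, the ATRA libraries below all others, and DAC+ATRA overlapped untreated. With DAC it changed by 1.80 ± 0.23 on the log2 scale (limma, adjusted p = 1.5e-05). The change was -2.59 ± 0.23 under ATRA (limma, adjusted p = 2.4e-08). That of 0.17 ± 0.23 with DAC+ATRA did not pass. Between DAC+ATRA and ATRA the difference was 2.75 ± 0.23. Its interaction of 0.95 did not pass (adjusted p = 0.13).

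H1-6 showed the same order at a lower level. Its counts were 24.9, 12.99 and 15.1 in untreated, 75.1, 84.7 and 139 with DAC, 3.58, 5.95 and 3.34 with ATRA, and 30.8, 29.3 and 35.7 with DAC+ATRA, so no groups overlapped. The ATRA values rest on 4, 8 and 4 reads. No ATRA library of H1-6 reached the level rule, so the choice of members favours a lower value with ATRA. That direction is therefore not read, though H1-6 is counted among the calls. The log2 change was 2.43 ± 0.34 with DAC and 0.87 ± 0.34 with DAC+ATRA, the last at a limma adjusted p of 0.047. It was called lower with ATRA, and no fold is given against so few reads. Both H1-1 and H1-6 carry the second stem-loop form printed above, which 7 other members share. Of those 7, none was called with DAC and 5 were lower with ATRA, among them the low gene H3C8, whose direction is not read.

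H1-10 was called lower than untreated only with both drugs. It had 765, 831 and 960 counts in untreated, 879, 757 and 549 with DAC, 775, 879 and 880 with ATRA, and 570, 541 and 599 with DAC+ATRA. Every DAC+ATRA library lay below every untreated and ATRA library, but DAC replicate 3 fell within the DAC+ATRA range. Neither the difference of DAC+ATRA to DAC nor the interaction was called. The change against untreated was -0.57 ± 0.14 and that against ATRA -0.56 ± 0.14 (limma, adjusted p = 0.0035 and 0.0082). Of 24 other settings, the first call was lost in 4 and the second in 12.

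**Figure D3:**
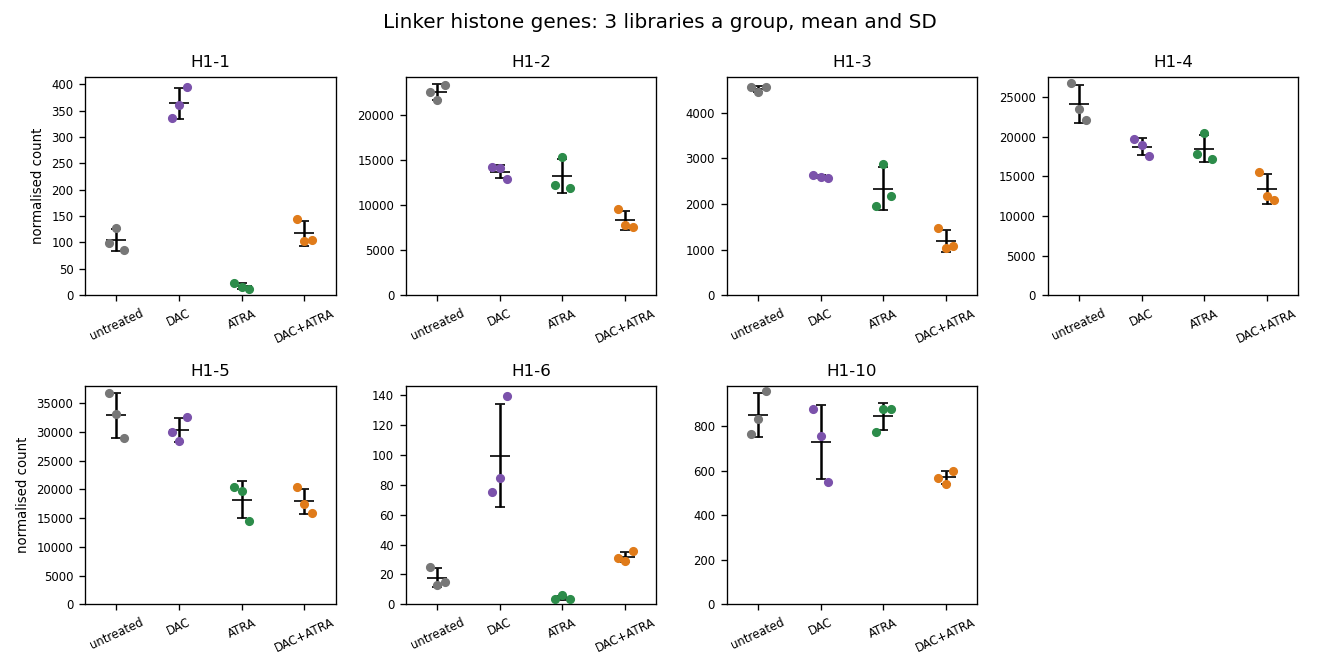
Each of 7 panels shows 1 linker histone gene, with the 4 groups on the x axis and normalised counts on a linear y axis from 0. Points are the 3 libraries of a group and bars give the mean and SD. H1-2 and H1-3 are lowest with DAC+ATRA, and H1-1 and H1-6 are highest with DAC and lowest with ATRA. The ATRA values of H1-6 lie under the level rule, and their direction is not read.

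Levels between genes were compared per kilobase of the listed transcript. In untreated libraries H1-5 stood highest at 41333 ± 4931 normalised counts per kilobase, followed by H4C5 at 36675 ± 3566, H3C2 at 32698 ± 3424, H2BC12 at 31280 ± 1856, H1-2 at 30773 ± 1171 and H1-4 at 30636 ± 3014. Neighbours in this order differed by less than the sum of their SDs. Core histones are described below, class by class, through the genes with the most normalised counts and those with the smallest p.

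Among H2A genes, H2AC11 was the highest in counts. It had 13260, 13281 and 13408 normalised counts in untreated, 12503, 12211 and 9792 with DAC, 7025, 7794 and 6344 with ATRA, and 6993, 6247 and 5280 with DAC+ATRA. Both ATRA groups lay below all other libraries and overlapped each other. Its change was -0.92 ± 0.12 with ATRA and -1.12 ± 0.12 with DAC+ATRA, while -0.22 with DAC did not pass.

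H2AC17 and H2AC13 came next. H2AC17 had 10783, 9655 and 9028 counts in untreated, 9330, 8572 and 8541 with DAC, 5975, 6385 and 4710 with ATRA, and 6288, 5518 and 5078 with DAC+ATRA. H2AC13 had 11065, 10462 and 9114, then 7283, 8532 and 7243, then 5978, 5882 and 5343, and 5426, 5230 and 4305 in the same order. In both genes the groups with ATRA lay below those without it and overlapped each other. With DAC+ATRA the changes were -0.81 and -1.04. H2AC13 shares 63.5% of its 50-base windows, about the length of a read, with H2AC14, so reads of these genes could be split between them or lost.

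H2AC8 and H2BC8 start in opposite directions from neighbouring sites, and their promoter windows overlap in the sequence shown above. H2AC8 had 10858, 9534 and 8875 counts in untreated, 7058, 6826 and 6716 with DAC, 4969, 5604 and 4366 with ATRA, and 4302, 4052 and 3559 with DAC+ATRA. H2BC8 had 7853, 8826 and 7983, then 5590, 5385 and 5542, then 4515, 5204 and 4244, and 3077, 2757 and 2500. Both genes were highest in untreated and lowest with DAC+ATRA without overlap of these groups with any other. With DAC the changes were -0.50 ± 0.11 and -0.58 ± 0.10, and the call of H2AC8 was lost in 6 of 24 other settings. With DAC+ATRA they were -1.30 ± 0.11 and -1.57 ± 0.10, and against ATRA they were -0.74 ± 0.10 in H2BC8 and -0.32 in H2AC8, the latter not called (limma, adjusted p = 0.046).

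H2AC15 had the smallest p of its class with DAC. Its counts were 2177, 2229 and 2393 in untreated, 1700, 1614 and 1072 with DAC, 1185, 1458 and 1241 with ATRA, and 1145, 1019 and 919 with DAC+ATRA. All treated libraries lay below all untreated ones, and its change with DAC was -0.66 ± 0.15, a call lost with only the groups compared and without any single untreated library. H2AC20, on chromosome 1, had 5892, 5456 and 4705 counts in untreated, 3993, 3866 and 3824 with DAC, 4301, 4917 and 4544 with ATRA, and 3476, 3226 and 2900 with DAC+ATRA. ATRA overlapped untreated, at a change of -0.22 that did not pass, and the difference of DAC+ATRA to ATRA was -0.52 ± 0.10.

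Among H2B genes, H2BC12 had the most counts and a small change. It had 16428, 15432 and 14592 counts in untreated, 14277, 13466 and 13115 with DAC, 12623, 11273 and 9885 with ATRA, and 12272, 10457 and 9568 with DAC+ATRA. No treated library reached the lowest untreated one. Its change was -0.46 ± 0.11 with ATRA and -0.53 ± 0.11 with DAC+ATRA, and it shares 47.8% of its windows with H2BC12L.

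H2BC17 and H2BC9 fell further. H2BC17 had 8160, 8143 and 7726 counts in untreated, 6920, 6524 and 5991 with DAC, 5197, 5212 and 3813 with ATRA, and 4927, 4104 and 3947 with DAC+ATRA. H2BC9 had 6546, 6336 and 5999, then 4164, 4164 and 4214, then 2755, 2949 and 2189, and 2534, 1939 and 1830. In both, untreated, DAC and the ATRA groups formed 3 levels without overlap, and ATRA overlapped DAC+ATRA. With DAC+ATRA the changes were -0.89 ± 0.12 and -1.60 ± 0.12.

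Among H3 genes, the 3 with the most counts were H3C2, H3C10 and H3C7. H3C2 had 15074, 16498 and 18554 counts in untreated, 18800, 16816 and 12039 with DAC, 9057, 10614 and 7640 with ATRA, and 11574, 9728 and 9002 with DAC+ATRA. H3C7 had 6601, 7706 and 9262, then 8553, 8155 and 3677, then 3019, 4489 and 3352, and 4276, 3387 and 3040. In both, DAC replicate 3 stood below the other DAC libraries and below every untreated library. With ATRA the changes were -0.88 ± 0.15 and -1.12 ± 0.24.

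H3C10 had 15480, 15025 and 15478 counts in untreated, 12873, 12070 and 8564 with DAC, 8499, 10073 and 7982 with ATRA, and 9422, 7512 and 7256 with DAC+ATRA. Untreated libraries lay above all others, and DAC replicate 3 fell within the ATRA range. The change was -0.80 ± 0.14 with ATRA and -0.94 ± 0.14 with DAC+ATRA, and -0.48 with DAC did not pass (limma, adjusted p = 0.026).

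H3C11 and H3C12 had the smallest p of the class with ATRA and with DAC+ATRA. H3C11 had 6314, 5901 and 6179 counts in untreated, 6178, 5565 and 4540 with DAC, 3528, 3957 and 2969 with ATRA, and 3379, 3243 and 3033 with DAC+ATRA. Its ATRA groups lay below all libraries without ATRA. H3C12 had 7365, 7693 and 7229, then 6507, 5793 and 4759, then 4125, 4780 and 3433, and 4218, 3260 and 2981. All its treated libraries lay below the untreated ones. With DAC+ATRA the changes were -0.93 ± 0.12 and -1.11 ± 0.14. H3C8 is a low gene: its reads were 17, 8 and 19 in untreated, 6, 10 and 10 with DAC, 0, 1 and 1 with ATRA and 0, 0 and 1 with DAC+ATRA. It was called lower with ATRA and with DAC+ATRA, and no fold is given against so few reads. H3C8 passed the level rule through untreated and DAC libraries alone, so the choice of members favours a lower value with ATRA. Its direction is therefore not read, though it is counted among the lower calls.

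H4C4 had the smallest p of the H4 genes with ATRA. It had 7438, 7105 and 7204 counts in untreated, 7358, 7109 and 6252 with DAC, 2551, 2861 and 2014 with ATRA, and 2548, 2178 and 2019 with DAC+ATRA. DAC overlapped untreated, and the groups with ATRA lay far below both and overlapped each other. Its change was -1.56 ± 0.12 with ATRA (limma, adjusted p = 5.6e-09), -1.70 ± 0.12 under both drugs (2e-09) and -0.07 with DAC, which was not called.

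H4C5 fell with each drug. It had 16386, 15441 and 13504 counts in untreated, 11265, 10414 and 11160 with DAC, 7948, 8892 and 7049 with ATRA, and 6119, 5645 and 5375 with DAC+ATRA, with no overlap between any groups. Its change was -0.46 ± 0.11 with DAC, -0.93 ± 0.11 with ATRA and -1.40 ± 0.11 with DAC+ATRA. H4C3 had 10852, 11282 and 10984 counts in untreated, 10195, 10093 and 8693 with DAC, 6144, 7271 and 5102 with ATRA, and 6749, 6105 and 5552 with DAC+ATRA. Its change was -0.85 ± 0.12 both with ATRA and with DAC+ATRA.

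The other members are given by range. Among the 53 with a mean of at least 50 normalised counts, log2 changes reached up to 1.80 with DAC, down to -2.59 with ATRA and ran from -1.95 to 0.21 with DAC+ATRA. With ATRA 51 of the 53 values were below 0, and with DAC+ATRA 51 of 53. The exceptions included H2BC6 with ATRA, and were H1-1 and H2BC6 with DAC+ATRA. The values of H2BC6 come from its longer listed transcript, of 2585 bases, as given below. No exception was called. The 10 members with a lower mean include 3 pairs, H2AC18 and H2AC19, H3C14 and H3C15, and H4C14 and H4C15. H4C14 passed the level rule through DAC libraries alone, and H2AC18, H2AC19, H3C14 and H4C15 through libraries of DAC and 1 other treated group. No untreated library of these 5 reached the level, so the choice of members favours a higher value with DAC, and their direction is not read. Of the 10, H1-6 alone was called with DAC. These 3 pairs share nearly all their 50-base windows within the pair, so their reads cannot be given to 1 gene. H4C11 and H4C12 share 92.1% and 92.6% of theirs.

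Members were also counted by position, with no test of a difference between positions. The median log2 change with ATRA was -0.82 over the 29 members before 27 Mb (megabases) on chromosome 6 and -0.84 over the 21 beyond it, where 18 and 19 were called lower. Over the 11 on chromosome 1 it was -0.66, with 2 called lower, and 6 of these 11 belong to the low pairs just named. With DAC+ATRA the medians were -0.86, -0.94 and 0.01, with 19, 20 and 3 called lower. On chromosome 1, the 6 values above 0 were those of the low pairs, whose direction is not read. The 5 others there (H2AC20, H2AC21, H2BC18, H2BC21 and H3C13) were all below 0. By promoter, H2A and H2B genes with ATTTGCAT had a median of -0.82 with ATRA (23 genes) and those without it -0.81 (7 genes). By stem-loop, the medians with ATRA were -0.82, -0.89, -0.84 and -0.73 for the 4 forms in the order printed.

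Replicate libraries varied together across histone genes. DAC replicate 3 was below both other DAC libraries in 46 of 63 members, at a median of -0.32 (log2) to their mean, whereas the median over all genes tested was -0.01. By class the median was -0.65 for H3, -0.35 for H4, -0.34 for H2A, -0.08 for H2B and 0.04 for H1. ATRA replicate 2 was above both other ATRA libraries in 45 members, at a median of 0.26 to their mean against 0.003 over all genes tested. DAC+ATRA replicate 1 was above its replicates in 51, at a median of 0.28 against 0.01. The share of all genes above or below both replicates was not counted. Without DAC replicate 3, 47 members were called with ATRA, 49 with DAC+ATRA, 46 for DAC+ATRA against DAC and 13 with DAC. All groups share 1 fit, so leaving out a library can also change calls in comparisons that do not use it. The share of all genes called in this setting is not given, so these counts are not read as particular to histone genes.

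**Figure D4:**
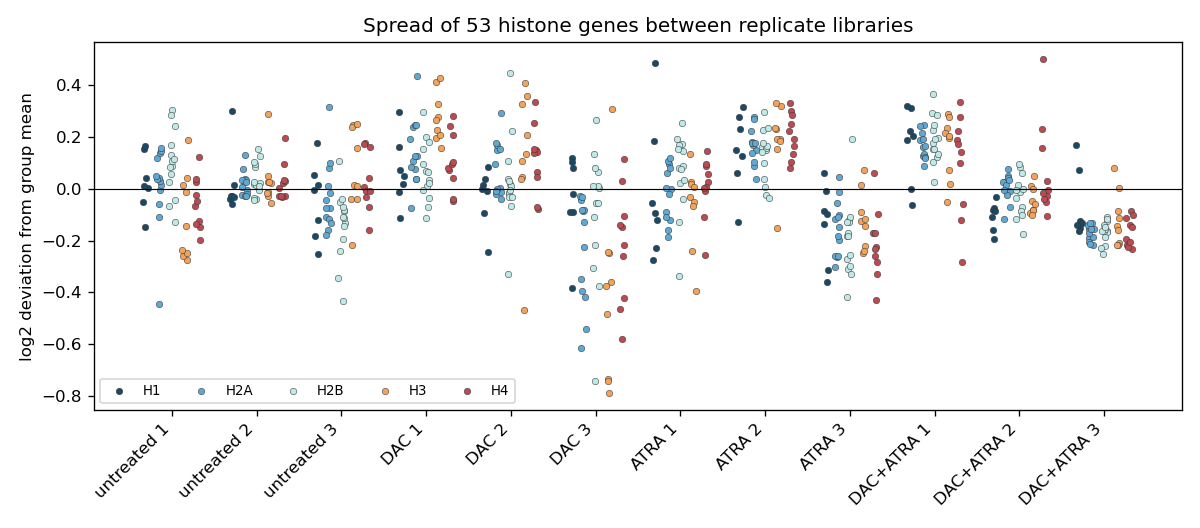
For 53 histone genes with a mean of at least 50 normalised counts, points give the log2 deviation of each library from its group mean (y axis), by library along the x axis and coloured by class. In DAC 3 several H3 genes lie furthest below 0, and in ATRA 2 and DAC+ATRA 1 most genes lie above 0.

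Some members had more than 1 listed transcript, and differences between the transcripts of a gene were not tested. Of the members, 55 had 1 listed row matched in the reference and 8 had several, of which some were longer transcripts that lack the stem-loop. For H2BC6 and H3C6 only the longer row, of 2585 and 2679 bases, passed the level rule. For H4C8 only a row not matched in the reference passed. The shorter stem-loop rows of these genes, of 470, 482 and 409 bases, did not pass. The values of H2BC6, H3C6 and H4C8 are thus not those of the short histone mRNA. The stem-loop transcript of H2BC4 had a mean of 6541 ± 1319 normalised counts in untreated, 5656 ± 381 with DAC, 3631 ± 278 with ATRA and 3691 ± 339 with DAC+ATRA. Its longer transcript without the stem-loop had 38.9, 27.6 and 31.4 in untreated, 35.6, 28.2 and 50.1 with DAC, 39.4, 52.1 and 36.8 with ATRA, and 68.6, 55.2 and 62.3 with DAC+ATRA. All DAC+ATRA libraries were thus above all others. In a fit of 15040 transcript rows, in which 19.5% of rows were called with ATRA and 21.8% with DAC+ATRA, the stem-loop row was lower with DAC+ATRA at -0.81 ± 0.13. The longer row differed by 0.91 ± 0.26 and did not pass (limma, adjusted p = 0.011). The H2BC15 pair gave -0.69 ± 0.13 for the stem-loop row and -0.61 ± 0.28, not called, for the longer one. Both H2BC18 rows were called lower, at -0.90 ± 0.16 and -0.87 ± 0.18, and both rows of H2BC5 and of H2BC11 had values below 0.

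Genes around the histone mRNA were read from lists written with earlier results of these data known. Of 29 tested S phase genes, such as replication licensing and DNA synthesis factors, 19 were lower and 1, MCM7, named after its values were seen, was higher with ATRA, against 14.0% and 12.1% of all genes. MCM7 was low, at group means of 38.0 normalised counts in untreated and 85.7 with ATRA, beside 3304 and 1571 for MCM2. Why levels differ so far between such genes was not tested. With DAC+ATRA 3 were lower and none higher, against 14.4% of all genes called lower, so this count does not stand above the background. Set directly against ATRA, DAC+ATRA was higher in 10 and lower in none, against 6.47% of all genes called higher, while 10 histone genes were lower and 2 higher in that comparison. The median log2 change of the list was -0.98 with ATRA, -0.22 with DAC+ATRA and 0.71 for DAC+ATRA against ATRA, and that of the histone genes was -0.82, -0.86 and -0.13. The difference between these lists was not tested.

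The S phase genes called with DAC+ATRA were MKI67, a marker of cycling cells, CDT1, which licenses replication origins, and RFC3, a subunit of the clamp loader. MKI67 changed by -1.16 ± 0.18 with DAC+ATRA and -1.33 ± 0.18 with ATRA. CDT1 changed by -0.82 ± 0.15 and -1.82 ± 0.15, and RFC3 by -0.73 ± 0.21 and -1.15 ± 0.21. The call of RFC3 with DAC+ATRA was lost in 11 of 24 other settings, among them the replicate block and each setting without 1 untreated or DAC+ATRA library. PCNA, the sliding clamp, was chosen after its values were seen. It was higher with DAC (0.85 ± 0.15), lower with ATRA (-0.57 ± 0.15) and higher in DAC+ATRA than in ATRA (1.00 ± 0.15).

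Factors that process histone mRNA or drive its transcription were counted next. Of 22 tested, 5 were lower and none higher with ATRA, against 14.0% of all genes called lower and 12.1% higher. With DAC+ATRA 2 were lower and 2 higher, against 14.4% and 14.5% of all genes. Nothing is read from these counts about the list. Among the 5, CCNE2 is also in the S phase list. LSM11, a subunit of the U7 particle that cuts histone pre-mRNA, changed by -0.65 ± 0.13 with DAC+ATRA and -1.02 ± 0.13 with ATRA. ERI1, an exonuclease that acts at the histone stem-loop, changed by -0.70 ± 0.16 and -0.77 ± 0.16. LSM10, the partner of LSM11, was higher with DAC+ATRA by 0.83 ± 0.19, and the cap-binding NCBP1 by 0.47 ± 0.11. SLBP, looked at for its role, was not called in any comparison, at -0.62 ± 0.23 with ATRA and 0.15 ± 0.23 with DAC+ATRA. Its level was low, with group means from 37.4 normalised counts with ATRA to 65.6 with DAC+ATRA. The missing call is therefore not read as an unchanged level.

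Of 21 tested histone chaperones, which hand histones to DNA, 7 were lower and none higher with ATRA, against 14.0% of all genes called lower. With DAC+ATRA limma called none of them, with 5 at an unadjusted p under 0.05, against 28.9% of all genes called. DAC+ATRA was higher than ATRA in 5 and lower in 1, against 6.47% and 5.46% of all genes. Of 9 tested replication-independent variants, 2 were higher and 2 lower with ATRA, against 12.1% and 14.0% of all genes. With DAC+ATRA limma called none of the variants, with 2 at an unadjusted p under 0.05, against 28.9% of all genes called. Nothing is read from these counts about the variants as a list. Chosen after their values were seen, the higher ones with ATRA were MACROH2A1 (0.88 ± 0.11) and H3-3A (0.85 ± 0.19), and the lower ones were CENPA (-1.01 ± 0.25) and H2AX (-0.75 ± 0.13). The change of MACROH2A1 with DAC was -0.59 ± 0.11.

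**Figure D5:**
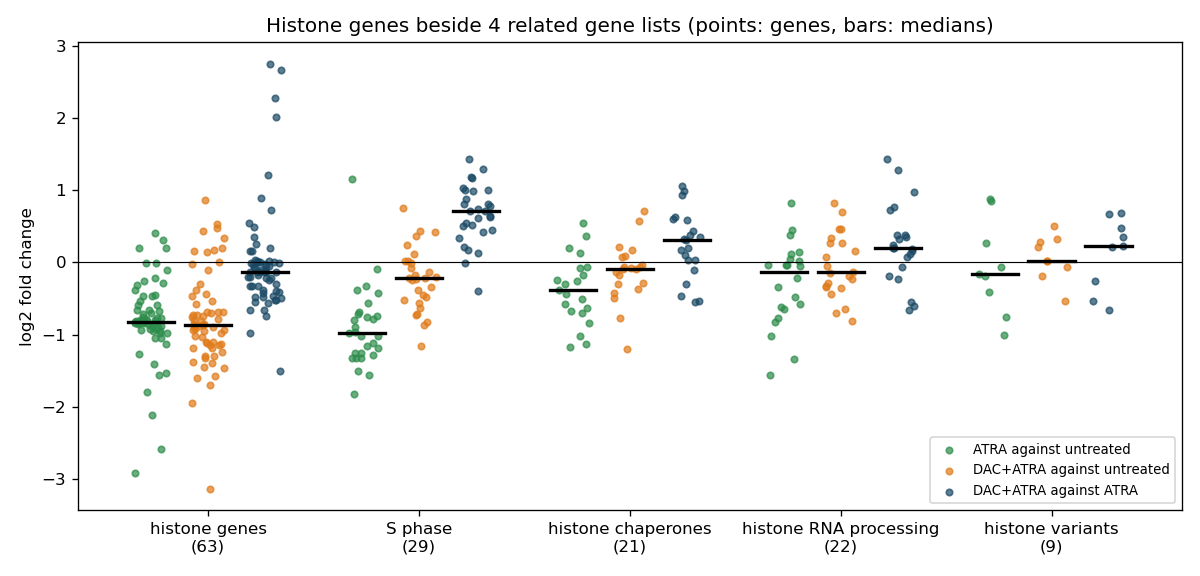
Points are genes and bars are medians of the log2 fold change for ATRA against untreated, DAC+ATRA against untreated and DAC+ATRA against ATRA, for the 63 histone genes and 4 related lists (29 S phase genes, 21 histone chaperones, 22 processing factors and 9 variants). The median for DAC+ATRA against ATRA is -0.13 in the histone genes and 0.71 in the S phase genes.

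The 5 genes outside the family whose pattern was most like the mean of the standardised members over 12 libraries were DHCR7, NIBAN2, FDFT1, CARD19 and INHBE, with Pearson r from 0.95 to 0.97. The points share the 4 groups, so these values describe the group pattern. DHCR7, which acts in cholesterol synthesis, had 156, 129 and 127 normalised counts in untreated, 96.7, 80.0 and 63.1 with DAC, 33.1, 35.7 and 31.8 with ATRA, and 33.6, 27.02 and 17.4 with DAC+ATRA.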

How the data were processed

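RNA of 12 MOLM-13 libraries was depleted of ribosomal RNA and sequenced as stranded paired-end reads of 50 bases. Per the study's methods and the labels, the authors used STAR for alignment against hg38, htseq-count for counting and DESeq2 for normalisation. The deposited signal is thus a normalised count per transcript row (100502 rows). Every value was a whole multiple of 1 step per library (100% whole within 0.1 read), so reads were recovered, from 4671214 to 11944630 per library. Whether reads that fit several genes were counted is not given in the sources used here. Columns named CTRL were taken as untreated. GENCODE 44 matched 88.9% of rows, and other releases may differ.

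Rows were summed per symbol. Protein-coding symbols with at least 10 normalised counts in 3 libraries were tested with limma 3.58.1 in R 4.3.3 (lmFit, eBayes with trend, two-sided) on log2(value + 1), a scale that understates changes of low genes. The members, lists and named-gene rule (all H1 genes; per core class the 3 highest by mean and the smallest p of each comparison; up to 4 called genes per list; the 5 most alike genes) were chosen with earlier results of these data known. The script was tested on simulated data. Alternatives were count tests on the recovered reads (DESeq2 1.42.0; edgeR 4.0.16), other scalings, pseudocounts, filters, thresholds, sample sets, a replicate block and leaving out each library. DESeq2 and edgeR were never the main test because the deposited values are not raw counts. The values of 1 member are not reported here, though it is counted among the members.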

Additional observations from a re-analysis of the deposited data

Results flagged for a closer look

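CDT1, which licenses replication origins, had an interaction of DAC and ATRA past the threshold, as did 2 marker genes and no histone gene. Its log2 change by DAC was higher by 1.03 ± 0.21 (SE) in cells with ATRA than in cells without it (limma, adjusted p = 0.0081). The call was lost under 14 of 24 other settings, with values from 0.84 to 1.16 over all 24. The interaction was 0.92 ± 0.19 in the myeloid marker CEBPA (limma, adjusted p = 0.0081) and -2.04 ± 0.43 in the stromal marker COL1A1 (limma, adjusted p = 0.0086), whose untreated mean was 8.03 normalised counts.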

How the results depend on the processing

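The balance of called histone genes turned in 2 comparisons when a change over 2-fold was required as well: 2 were higher and 1 lower with DAC (2 and 11 without it), and 2 higher and 1 lower in DAC+ATRA against ATRA (2 and 10). At an adjusted p under 0.05, ATRA and DAC+ATRA each gained 1 higher call beside 47 and 49 lower ones. For DAC against untreated, 13 genes became 7 with only the groups compared, 20 at an adjusted p under 0.05 and 3 with a change over 2-fold required as well, and 6 to 13 when single libraries were left out. For ATRA, 39 became 9 with over 2-fold required (38 to 47 without single libraries). For DAC+ATRA, 44 became 23 (43 to 49). For DAC+ATRA against DAC, 36 became 7 (27 to 46), and against ATRA 12 became 3 (7 to 15). The interaction count was 0 under all settings. Shares of all genes called under the other settings are not given, so these counts are not set against a background. DESeq2 gave 14, 40, 46, 40 and 12 for the 5 comparisons in this order, and edgeR 13, 41, 45, 37 and 12. Total-count scaling moved the median of all genes with ATRA from -0.04 to -0.09, and 41 histone genes were lower. With the replicate block the counts were 13, 40, 45, 36 and 11. The numbers do not pair the libraries: correlations of same-numbered deviations ran from -0.26 to 0.11, and 1 of 12 libraries correlated best with its own number. Of 92 results for named histone genes, none turned direction; 78 of 2204 recomputed values lost the call and 13 gained it. Of 24 settings each, the call was lost in 12 for H1-10 and 8 for H1-4 in DAC+ATRA against ATRA, in 8 for H4C5, 7 for H2AC20, 6 for H2AC8 and 4 each for H2AC15 and H2BC9 with DAC, and in 5 each for H2BC12 with ATRA, H4C5 in DAC+ATRA against ATRA, and H3C2 and H1-4 in DAC+ATRA against DAC. Depth of at most 7162775 reads in the libraries with DAC limits the low genes.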
